A study of Caenorhabditis elegans with 2 samples.

Results

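The genes described here are 7 regulators of cell fate in the postembryonic mesoblast of Caenorhabditis elegans, namely sma-9, let-381, sem-2, ceh-34, eya-1, mls-2 and fozi-1, of 19973 nuclear protein-coding genes in all. They were chosen by name for their known roles in this lineage, and every site of HLH-8 within 5 kb of a gene or inside it was assigned to that gene by its summit, the base of highest signal. HLH-8, the worm's Twist-family basic helix-loop-helix factor, was profiled by chromatin immunoprecipitation sequencing (ChIP-seq) in 1 group of 2 biological replicates. The animals were hermaphrodites of strain OP63 at the late embryonic stage, collected 3.5 h after their eggs had been synchronized by bleaching. They carried HLH-8 with a GFP-FLAG tag at its C terminus, and the chromatin, sheared with a microtip sonicator, was precipitated through an antibody to GFP. Whole embryos were used, so the mesoblast, M, was a small part of each sample, and signal from it could not be told apart from signal of other cells. No second condition was profiled, and control libraries and an untagged strain were not analysed here. All signals below are the authors' deposited values in an arbitrary unit and are set side by side only inside 1 list, or at 1 site across the replicates.

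The M mesoblast is born in the embryo and divides after hatching. Its descendants become striated body wall muscles, the non-striated muscles of the egg-laying system and coelomocytes, which are scavenger cells of the body cavity. The embryos profiled here were collected before these divisions. Presence or absence of a site below therefore does not show what HLH-8 binds in the descendants. HLH-8 acts in this lineage, where it is needed for normal divisions and for the differentiation of the egg-laying muscles, and it also acts in enteric muscles. Twist-family proteins bind the E-box CANNTG as dimers, and the class CATATG is known from promoters of HLH-8 target genes. The 7 regulators have distinct roles. SMA-9, a zinc finger protein of the Schnurri family linked to the BMP-like Sma/Mab pathway, patterns the dorsal and ventral sides of the lineage. LET-381 is a forkhead factor of dorsal coelomocyte fate that activates ceh-34. CEH-34, a Six-family homeodomain protein, and EYA-1, its Eyes absent partner, act together in coelomocyte fate. SEM-2, a SoxC factor, promotes the fate of the sex myoblasts, from which the egg-laying muscles come. MLS-2, a homeodomain protein of the HMX family, controls division and coelomocyte fate upstream of hlh-8. FOZI-1, a zinc finger protein with a formin homology domain, acts in body wall muscle and coelomocyte fate.

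Sequence of 101 bp around 6 summits is shown. They are examples of the strongest site at the 7 genes, which lacks an E-box at its summit, and of weaker sites with and without one. Sites of let-381, sem-2 and eya-1, whose strongest candidates each had an E-box within 50 bp, are not shown. The fozi-1 site shown is not its strongest, which holds TCTCTC. Capitals mark an E-box (CANNTG, which reads as the same pattern on both strands) or GAGAGA, which appears as TCTCTC when it lies on the minus strand. Letters are from the RefSeq sequence of the ce11 assembly, and the summit is the middle base.
sma-9 distal upstream, optimal peak, chrX:10766273-10766373, plus strand: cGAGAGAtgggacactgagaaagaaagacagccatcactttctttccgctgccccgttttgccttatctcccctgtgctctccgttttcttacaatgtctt
sma-9 proximal upstream, chrX:10767744-10767844, plus strand: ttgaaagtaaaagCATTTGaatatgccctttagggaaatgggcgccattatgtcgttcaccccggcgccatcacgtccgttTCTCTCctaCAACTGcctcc
sma-9 first intron, chrX:10771185-10771285, plus strand: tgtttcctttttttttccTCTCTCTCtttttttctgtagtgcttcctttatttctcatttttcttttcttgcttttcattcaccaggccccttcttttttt
ceh-34 upstream, chrV:5321856-5321956, plus strand: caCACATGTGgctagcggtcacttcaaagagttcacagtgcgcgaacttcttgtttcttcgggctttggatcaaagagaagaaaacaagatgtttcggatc
mls-2 second intron, chrX:4759965-4760065, plus strand: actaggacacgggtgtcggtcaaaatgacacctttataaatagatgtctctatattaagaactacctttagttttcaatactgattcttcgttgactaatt
fozi-1 second intron, chrIII:9291100-9291200, plus strand: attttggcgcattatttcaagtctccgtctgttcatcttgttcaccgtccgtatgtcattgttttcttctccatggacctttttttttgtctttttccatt
The first site holds GAGAGA and no E-box, and the third a run of TCTCTC repeats. The second holds both kinds of motif. The fourth has overlapping copies of CACATG near its left edge, and the last pair holds neither motif.

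Only sma-9 had an optimal HLH-8 peak, a peak that the authors' reproducibility step kept. The share was 1 of 7 genes, or 14.3%, beside 13.8% of all 19973 nuclear protein-coding genes (2750 genes) and 22.3% of the 998 genes of 10 kb or more. The members' share was therefore near the background. In the pooled list, which was made from both replicates together and deliberately holds background as well as peaks, all 7 genes had at least 1 candidate, as did 86.2% of all genes. The strongest candidate ranked 235 of 25904 at sma-9, 2694 at let-381, 5086 at sem-2, 5115 at ceh-34, 7730 at eya-1, 15559 at mls-2 and 16340 at fozi-1. The median of these ranks was 5115, beside a median best rank of 5303 over all genes with a candidate and of 3041 over those of 10 kb or more, a length that 4 of the 7 reach. At sma-9, 3.29% of all genes had a better rank, against 27.0% at let-381, 41.9% at sem-2, 42.0% at ceh-34, 53.6% at eya-1, 74.9% at mls-2 and 76.3% at fozi-1. The strongest candidates of sem-2 and ceh-34, adjacent in this order of ranks, had pooled signals of 25.8 and 25.7, which barely differ. Among the 998 genes of 10 kb or more, 49 had a better rank than sma-9, 683 than sem-2, 801 than eya-1 and 948 than fozi-1.

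**Figure D1:**
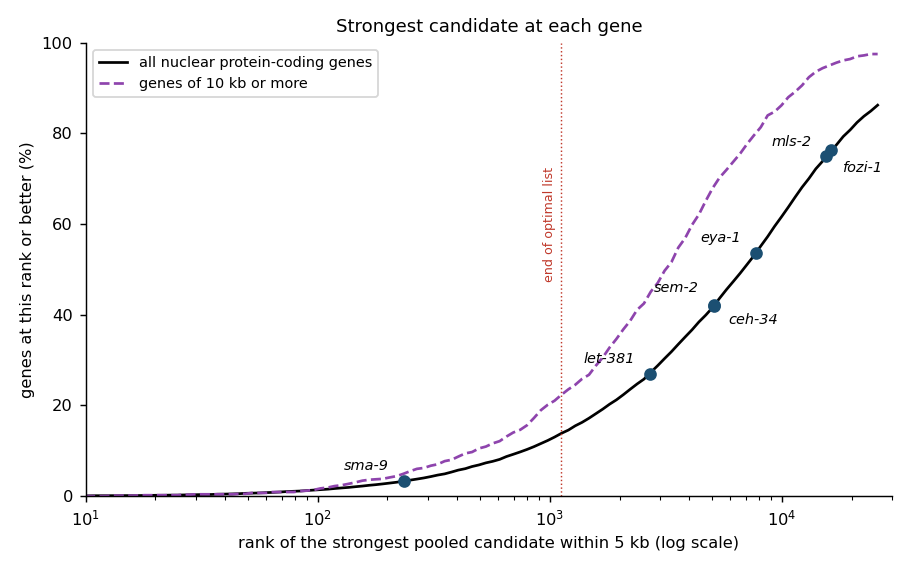
Cumulative share of genes (y axis, percent) by the rank of the strongest pooled candidate within 5 kb (x axis, log scale), for all nuclear protein-coding genes (solid line) and genes of 10 kb or more (dashed line). Points are the 7 regulators set on the solid line; sma-9, at rank 235, is the one point left of the dotted line that ends the optimal list at rank 1120.

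In all, 35 pooled candidates lay at the 7 genes, 11 of them at sma-9. Of these, 13 lay in introns, 10 upstream, 5 downstream and 7 in exons. The summit lay inside another gene at 6, and at 15 the nearest protein-coding 5′ end was that of another gene. Within 500 bp of a 5′ end of the regulator itself lay 4 summits. Shares of these placements over all candidates were not computed, so whether the 7 genes differ in them was not tested. The genes vary in length and so in the span searched. Per kb searched, ceh-34 had 0.497 candidates and sma-9 0.464, while let-381 had 0.291, eya-1 0.242, fozi-1 0.161, sem-2 0.119 and mls-2 0.0779. The median over all genes was 0.239 per kb, with quartiles of 0.0931 and 0.366. Of all genes, 90.0% had a lower density than ceh-34 and 87.3% a lower one than sma-9, so the gene densest in candidates was not the gene with the strongest one.

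**Figure D2:**
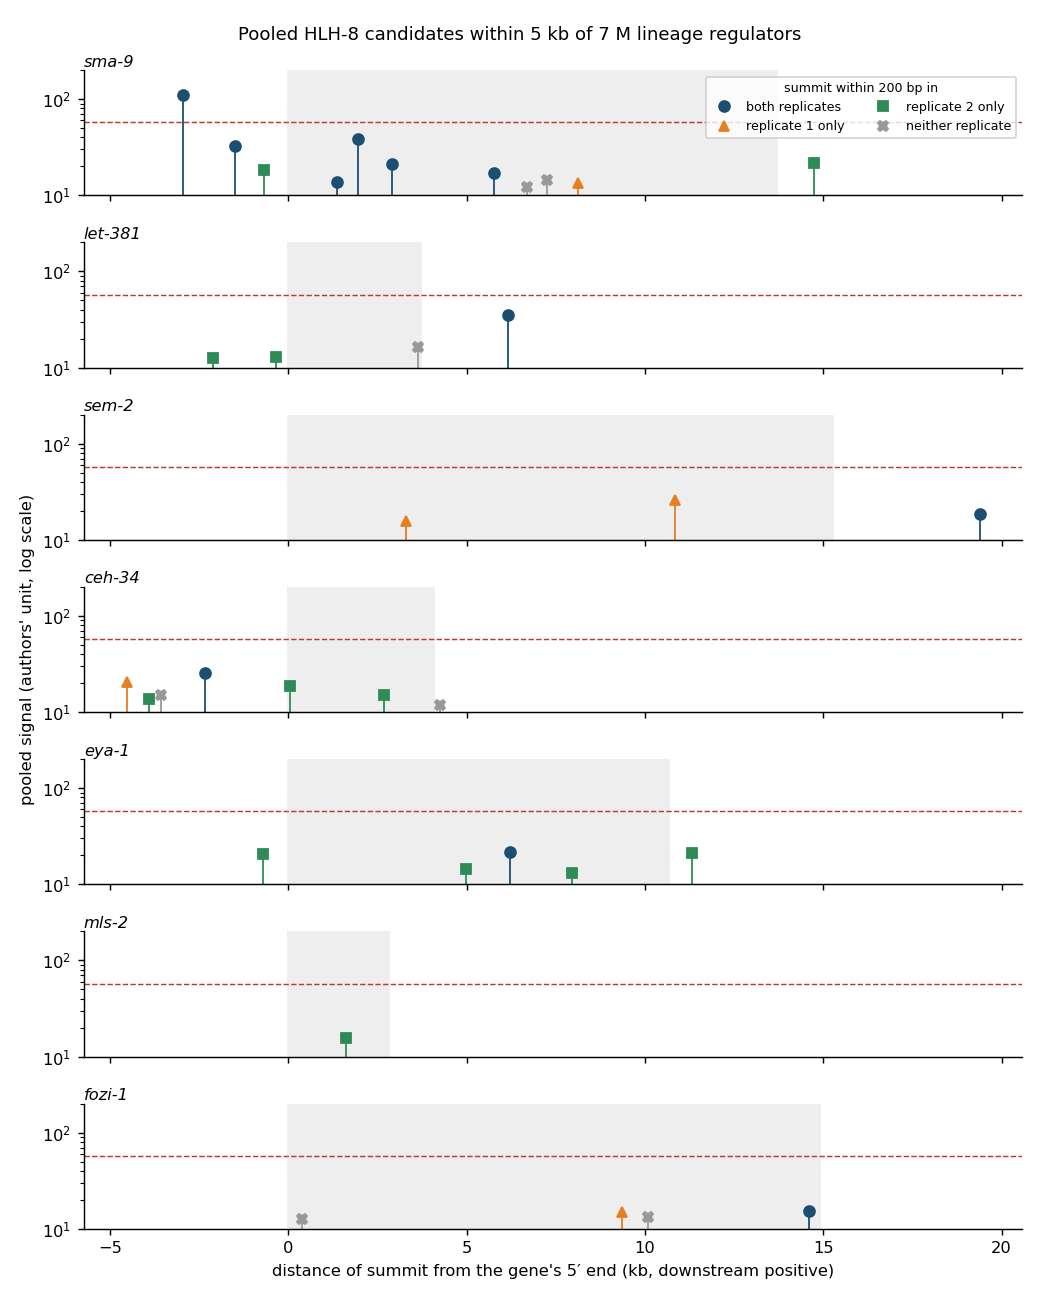
Pooled candidates at each of the 7 genes, placed by distance of the summit from the gene's 5′ end (x axis, kb, downstream positive) and by pooled signal (y axis, log scale). Grey spans are the gene bodies, the dashed line is the weakest optimal signal of 57.4, and the marker says in which replicates a summit lay within 200 bp; 1 point, at sma-9, stands above the line.

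Agreement between the replicates was near that of candidates in general. A candidate counted as found in a replicate when that replicate's own list had a summit within 200 bp of the pooled summit. Both replicates had 11 of the 35 candidates, 31.4% (exact 95% binomial interval 16.9 to 49.3%), beside 32.8% of 25882 nuclear candidates. Replicate 1 alone had 5, replicate 2 alone 12, or 34.3%, and neither had 7. Over all nuclear candidates these shares were 26.3% for replicate 1 alone, 28.7% for replicate 2 alone and 12.2% for neither. Of the 15 candidates ranked 12952 or better, 8 were found in both replicates, where the share over all such candidates was 58.4%. Of the 20 weaker ones 3 were, where the share was 7.2%. These intervals cover counting error over sites only, and sites of 1 gene are not independent. sma-9 held 6 of the 11 sites of both replicates. Without it, 5 of 24 candidates were in both.

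At these 11 sites the stronger replicate varied. Replicate 2 had the higher signal at 6 and replicate 1 at 5. The log2 ratio of replicate 2 over replicate 1 had a median of 0.09 and ran from -1.06 to 0.81. Over all 8489 sites of both replicates the median was 0.09 and the SD 0.62.

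**Figure D3:**
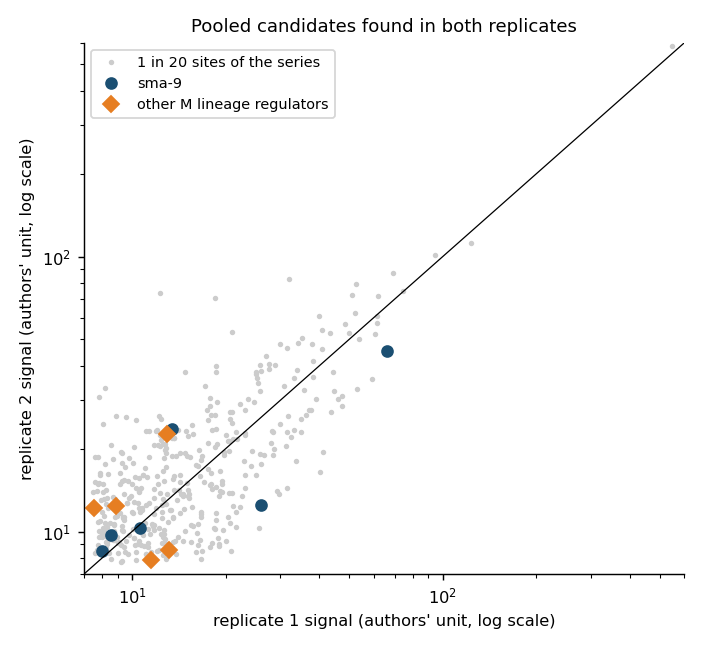
Signal in replicate 1 (x axis) and replicate 2 (y axis), both on log scales, at pooled candidates found in both replicates, with the line of equal signal. Circles are the 6 sites of sma-9, diamonds the 5 of the other regulators and grey points 1 in 20 sites of the series; the sma-9 optimal peak, at 66.1 and 45.2, is the one regulator site far up the diagonal.

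sma-9 (WBGene00004862), on the plus strand of chromosome X at 10769282 to 10782973 in ce11, is 13692 bp long with 16 annotated transcripts that start at 6 different 5′ ends. Its optimal peak spanned 10766247 to 10766441, with a summit 2959 bp upstream of the gene, in the space between genes. The pooled signal was 110.0, beside a median of 79.6 over the optimal list. The -log10 q was 3.57, the ceiling of the pooled list, which 1846 candidates reached. Replicate 1 had a signal of 66.1 there, rank 118 in its own list, and replicate 2 had 45.2, rank 512, a mean of 55.7 ± 14.8 (SD, n = 2). Both replicates thus placed it among their strongest sites, with summits 17 and 58 bp from the pooled one. The nearest protein-coding 5′ end was that of sma-9 itself, and the gene on the other side, R07A4.3, ended 8171 bp away. Each replicate had a further, weaker summit beside the peak, of 8.56 in replicate 1 and 16.7 in replicate 2.

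The peak was 195 bp wide, where the median width was 444 bp. Peaks narrower than 300 bp were 22.4% of the optimal list and 1.00% of the pooled list. No E-box lay within 50 bp of the pooled summit, while GAGAGA did, as shown above. The nearest E-box, CAACTG, began 97 bp before the pooled summit and so outside the peak. It began 39 bp before replicate 2's summit, so whether this peak has an E-box depends on which summit is used.

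The next site of sma-9 lay in its first intron, at 10771013 to 10771456, 1953 bp downstream of the gene's 5′ end and 1846 bp from the nearest internal 5′ end. It ranked 2302, with a pooled signal of 38.8 and a -log10 q of 3.19, the highest at these genes outside the optimal list. Replicate 1 had 25.9, rank 1352, and replicate 2 had 12.5, rank 8763, a mean of 19.2 ± 9.52 (SD, n = 2). Replicate 2 was lower here by a log2 ratio of -1.06, the widest gap of the 11 shared sites. This site holds TCTCTC and no E-box within 50 bp.

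The proximal upstream site, at 10767572 to 10768015, lay 1488 bp before the gene. It ranked 3156, with a pooled signal of 32.3. Replicate 1 had 13.4 there and replicate 2 had 23.6, a mean of 18.5 ± 7.20 (SD, n = 2). The order of the replicates was thus the reverse of that in the intron. CAAATG began 37 bp before this summit and CAACTG 40 bp after it, with TCTCTC between them.

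The other 8 candidates of sma-9 had pooled signals from 12.2 to 21.5. The strongest of them, at rank 7673, lay past the end of the gene and 103 bp from the 5′ end of clc-4, a claudin-like gene named here after its values were seen. Replicate 2 alone had that one, at 16.3, and CAAGTG began 19 bp after its summit. A candidate 2915 bp into the gene, in the first intron, had 8.59 in replicate 1 and 9.74 in replicate 2, near the lowest signals of those lists, 7.50 and 7.75. One in coding sequence 5781 bp into the gene had 10.6 in replicate 1 and 10.3 in replicate 2, with CAATTG 26 bp before its summit. Closest to any 5′ end, at 497 bp from an internal one, was a coding-sequence candidate of rank 20829 that replicate 1 alone had, at 10.4.

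**Figure D4:**
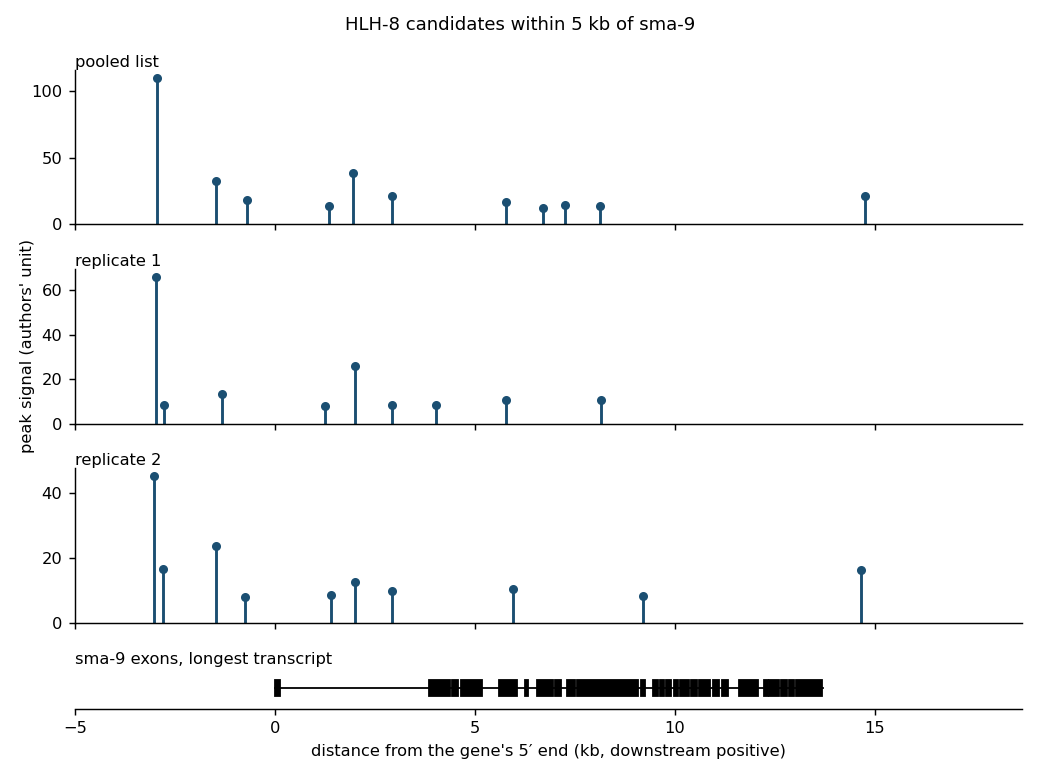
Candidates at sma-9 in the pooled list and in each replicate (y axes, signal on linear scales that differ between panels), by distance from the gene's 5′ end (x axis, kb), above the exons of its longest transcript. The tallest line is at the same upstream place in all 3 lists, at 110.0 pooled, 66.1 in replicate 1 and 45.2 in replicate 2.

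let-381 (WBGene00002601) lies on the minus strand of chromosome I at 6320289 to 6324019. Its strongest candidate, rank 2694, stood in a neighbouring gene. It was in hrpk-1, which encodes a protein of the hnRNP K family, 147 bp from the 5′ end of hrpk-1 and 6155 bp downstream of the 5′ end of let-381. The pooled signal was 35.5 and the -log10 q 2.56. Replicate 1 had 12.9, rank 7272, and replicate 2 had 22.5, rank 2169, a mean of 17.7 ± 6.81 (SD, n = 2). CAAATG began 7 bp before the summit and CAAGTG 23 bp after it.

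Nearer to let-381 itself the candidates were weak. The one 332 bp upstream of the gene had a pooled signal of 12.9 and rank 22395, close to the list's lowest signal of 11.8. Replicate 2 had 13.5 there and replicate 1 no summit within 200 bp. CAGATG began 46 bp after this summit and ran past the 50 bp edge. The other 2 candidates, in the 3′ UTR and 2120 bp upstream, ranked 14525 and 23220. No candidate in the body of let-381 was found in both replicates.

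sem-2 (WBGene00004771), on the minus strand of chromosome I at 5204530 to 5219815, is the longest of the 7 genes at 15286 bp and had 3 pooled candidates, where the median for genes of 10 kb or more was 7. The strongest, rank 5086, lay in the second intron, 846 bp upstream of an internal 5′ end. Its pooled signal was 25.8. Replicate 1 had 18.1 there, rank 3042, with a -log10 q of 1.51, and replicate 2 had no summit within 200 bp. CAAATG began 3 bp before the summit, the E-box closest to a pooled summit at these genes.

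The other intronic candidate of sem-2, in the first intron at rank 15734, was also found in replicate 1 alone, at 12.2. CAGCTG and CAGATG flank its summit at 25 bp to either side. The candidate of both replicates lay beyond the gene in osr-1, a gene of the osmotic stress response named here after its values were seen. It had 7.52 in replicate 1 and 12.1 in replicate 2 (mean 9.82 ± 3.26, SD, n = 2). The replicate 1 value was near that list's lowest signal of 7.50. The replicate 2 summit lay 168 bp from the pooled one and 190 bp from that of replicate 1. All 3 sites had an E-box within 50 bp. The introns of sem-2 itself thus held no candidate found in both replicates.

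ceh-34 (WBGene00000455) lies on the minus strand of chromosome V at 5315496 to 5319577 and had 7 candidates, the most after sma-9. The strongest, at 5321684 to 5322127, lay 2329 bp upstream with a pooled signal of 25.7. Replicate 1 had 8.91 there, rank 17648, and replicate 2 had 12.4, rank 8849, a mean of 10.7 ± 2.48 (SD, n = 2). Replicate 2 had a further summit of 15.1 beside it, 177 bp from the pooled one. The overlapping CACATG pair shown above began 48 and 46 bp before the pooled summit. This was the one site of the 35 with CACATG within 50 bp of the summit.

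A weaker candidate covered the start of ceh-34. Its summit lay 50 bp into the gene, in the first exon, at rank 10620 with a pooled signal of 18.7. Replicate 2 alone had it, at 13.0, and no E-box lay within 50 bp. The remaining 5 candidates ranked from 8714 to 25577, and none was found in both replicates. That of rank 8714 lay in ceh-33, another Six-family gene, which is the upstream neighbour and is named here after its values were seen. In the fifth intron, a candidate of rank 16598 that replicate 2 alone had, at 8.07, carried CAGCTG 23 bp after its summit.

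eya-1 (WBGene00001377), the partner of CEH-34, lies on the minus strand of chromosome I at 14220693 to 14231360. Its strongest candidate, rank 7730 with a pooled signal of 21.5, fell in coding sequence of exon 4. Replicate 1 had 13.2 and replicate 2 had 8.56, a mean of 10.9 ± 3.26 (SD, n = 2), and the summits of the replicates were 8 bp apart. CAAATG began 29 bp before the pooled summit. It was the only one of the 5 eya-1 candidates found in both replicates.

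The other 4 candidates of eya-1, at ranks from 8089 to 21944, were found in replicate 2 alone, with signals from 8.20 to 13.8. The upstream one, 700 bp before the gene, had a pooled signal of 20.8 and 11.3 in replicate 2. Replicate 1 had summits of its own upstream, 1339 and 1540 bp before the gene, with signals of 17.3 and 14.8. These were its strongest at eya-1, and neither had a summit within 200 bp in the pooled list or in replicate 2. The replicates therefore did not place the upstream signal of eya-1 at the same position.

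mls-2 (WBGene00003377) and fozi-1 (WBGene00010453) had the lowest-ranked best sites of the 7 genes. mls-2, on the minus strand of chromosome X at 4758804 to 4761640, had a single pooled candidate, at 4759793 to 4760236 in the second intron, with a signal of 15.7. Replicate 2 alone had it, at 11.4, with no E-box within 50 bp. Replicate 1 had a candidate of 14.0 in the same intron, 524 bp from the pooled summit, and there CAAATG began 2 bp before the summit. Replicate 2 had further weak candidates 529 bp upstream, at 9.57, and past the end of the gene, at 9.38. No site of mls-2 was found in both replicates.

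fozi-1, on the plus strand of chromosome III at 9281780 to 9296675, spans 14896 bp and had 4 pooled candidates with signals from 12.6 to 15.3. Its strongest, in the 3′ UTR, had 11.5 in replicate 1 and 7.85 in replicate 2, a mean of 9.67 ± 2.58 (SD, n = 2). The replicate 2 value was near that list's lowest signal of 7.75. The replicate 2 summit lay 196 bp from the pooled one, just inside the limit for a shared site, and 212 bp from that of replicate 1. A candidate in the second intron, at 9290928 to 9291371, had 12.4 in replicate 1, and replicate 2 had 7.84 at 252 bp from it, just beyond the limit for a shared site. The candidate 384 bp into the gene, in the first intron, had a pooled signal of 12.6, rank 23295, and no summit of either replicate. None of the 4 had an E-box within 50 bp.

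The share of these candidates with an E-box was near that of candidates in general. Of the 35, 11 had CANNTG within 50 bp of the summit, 31.4% (exact 95% binomial interval 16.9 to 49.3%), beside 35.1% of all nuclear candidates and 48.9% of the 1100 nuclear optimal peaks. The class CAAATG was at 5 sites, CAAGTG at 3 and CAGCTG at 2, while CAACTG was at 1 site, CAATTG at 1, CACATG at 1 and CAGATG at 1. CAAATG was at 7.87% of all candidates and 7.09% of optimal peaks. CATATG, the class known from HLH-8 targets, was at no pooled summit of the 7 genes and at 2.13% of all candidates. Absent as well were CACCTG, found at 3.37% of all candidates, and CACGTG, found at 2.40%. Farther out, CATATG began 117 bp before the summit of an eya-1 candidate and 146 bp before that of a sma-9 candidate. Any of CATATG and the related classes CAGATG as well as CACATG was at 2 sites, 1 each at sem-2 and ceh-34, beside 12.5% of all candidates. The spans searched around the genes held 588 E-boxes, of which 15 were within 50 bp of a candidate summit.

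GAGAGA on either strand was at 6 of the 35 candidates, 17.1% (exact 95% binomial interval 6.56 to 33.6%), beside 11.2% of all candidates and 26.1% of optimal peaks. They were 4 sites of sma-9, its 3 strongest among them, and 1 each at eya-1 and fozi-1. GC content within 50 bp of the summits had a median of 38.6%, beside 40.6% over all candidates and 49.5% over optimal peaks. Sites over tRNA or snoRNA genes were not among them, since the nearest such gene was 6028 bp away.

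By the deposited q-values, 4 of the 35 candidates had a q below 0.05, that is a -log10 q above 1.30, as had 4225 of all 25904, or 16.3%. They were the 3 strongest of sma-9 and the one at let-381 in hrpk-1. No candidate at sem-2, ceh-34, eya-1, mls-2 or fozi-1 passed this limit in the pooled list. In the replicates' own lists, 27 candidates of replicate 1 and 39 of replicate 2 lay at the 7 genes. A q below 0.05 was reached by 4 of those 27, beside 14.2% of all replicate 1 candidates, and by 3 of those 39, beside 15.7% of all replicate 2 candidates. These 7 were 4 at sma-9 and 1 each at let-381, sem-2 and eya-1, of which the one at eya-1, 1339 bp upstream in replicate 1, had no pooled summit within 200 bp. Of the 27 and 39, 17 and 25 had a pooled summit within 200 bp, which leaves 24 without one.

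Other genes known to act in the M lineage or its Sma/Mab signals are given for comparison. Of 24 such genes, 10 had an optimal peak within 5 kb, or 41.7%, where the share was 13.8% over all genes and 22.3% over genes of 10 kb or more. Their median best rank was 1869, beside 5303 over all genes with a candidate. Their strongest sites were at hlh-8 itself, rank 19 with a signal of 271.8, the gene that the transgene also carries, and at ceh-20, an Exd/Pbx homeodomain cofactor, rank 63 with a signal of 175.8. Next came egl-17, an FGF ligand, at rank 121. The others were sys-1, unc-62, sma-6, sma-2, pop-1, egl-15 and mab-5, at ranks from 367 to 1119. The list holds 9 genes of the Sma/Mab pathway, to which sma-9 is linked. Of these, 2 had an optimal peak: the receptor sma-6 at rank 726 and the Smad sma-2 at rank 961, both weaker than that of sma-9. The other 7, daf-4, sma-4, drag-1, sma-10, lon-2, dbl-1 and sma-3, had none, with best ranks from 1867 to 16351. The optimal peaks lay 7119 bp downstream of the 5′ end of sma-6 and 11851 bp downstream of that of sma-2. Whether another gene was nearer to a peak is not given here for the 24 genes. No test was made of this list, whose members differ in length and in number of transcripts. The list was chosen with earlier results of these data known, so its share is no measure of HLH-8 binding at M lineage genes.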

How the data were processed

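HLH-8 ChIP-seq was deposited as peak lists for 2 biological replicates. Candidates were listed for each replicate against a control and for both replicates together, and the optimal list is what the irreproducible discovery rate step kept, per the file inventories. Aligner, peak caller and any scaling for depth: not given in the sources used here. Column 7 holds the signal of a peak as deposited by the authors. The -log10 q values (column 9) are also as deposited by the authors. The 4 lists on ce10 were not used.

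Summits (column 10) were set against the Ensembl release 115 annotation of ce11 with 1-based coordinates, and candidates were ranked by pooled signal. A summit within 5 kb of a gene or inside it belonged to that gene. Replicates shared a site when each had a summit within 200 bp of the pooled one. Summits of the replicates at a shared site could therefore lie further apart than 200 bp. E-boxes were counted where the whole motif lay within 50 bp of a summit. Read depth is unknown, so no interval or floor is given for a signal. The labels call the libraries biological replicates, and an SD over them measures the spread between these 2 samples only. Shares have exact 95% binomial intervals over sites (Clopper-Pearson). The comparisons are descriptions, with no test over the genes, and the counting was tried on simulated data.

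The 7 genes, the list of other M lineage genes and the motifs were chosen with earlier results of these data known. The genes named were all 7, the nearest gene and any host gene of sites ranked 5000 or better, and listed M lineage genes with an optimal peak. Of each of the 7, the strongest site, optimal peaks and sites within 500 bp of a 5′ end were described in full. Alternatives changed the gene window, the distance for shared summits, the E-box window and classes, the rank limit and the replicate used. Python 3.11.15, numpy 2.4.6, pandas 2.3.3, scipy 1.17.1 and matplotlib 3.10.9 were used.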

Additional observations from a re-analysis of the deposited data

How the results depend on the processing

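Of 30 alternative values, 23 stayed within 1.5 times of the value reported and 7 moved. No member had an optimal peak (0) with a window of 2 kb, since the sma-9 peak lies 2959 bp upstream. The 35 pooled candidates became 15 among those ranked 12952 or better, where 5 of the 7 genes still had one. The 11 candidates of both replicates became 6 with summits within 100 bp and 7 with the 2 kb window. The 11 with an E-box became 4 within 25 bp, 20 within 100 bp and 2 with CATATG and both related classes only. With either replicate left out, 1 gene, sma-9, had a peak among as many strongest candidates as the optimal list holds, all 7 genes had a candidate, candidates numbered 27 to 39, and those with an E-box 10 to 14. No paired analysis was possible because the series has 1 group. Low pooled signal limits most sites. Of the 35, 20 ranked below 12952, the middle of the pooled list, as did 15 of the 24 outside sma-9.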
